A study of Mus musculus with 32 samples.

Results

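Zfp979, Irx1, Klf16, Serpine2, Tff3 and Abhd18 are 6 of 23109 genes tested on liver arrays of mice at 2 ages. They were selected on their measured levels, for a difference between 30 and 12 weeks of age, so every difference between ages given for them is a description and was not tested. The probes were found by the RefSeq identifier in the array files, which gave 2 probes each for Zfp979 and Abhd18 and 1 probe for each of the other 4 genes. The brightest probe stands for its gene, and all 6 passed the filter on dim probes.

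Liver total RNA came from 32 male wild-type C57BL/6 mice, 1 mouse per 1-colour Agilent array. In the chronic jet lag schedule (CJ), singly housed mice were switched, starting at 4 weeks of age, between 2 time zones with an 8 h difference in light onset. In the steady schedule (NS), singly housed mice stayed in 12 h of light and 12 h of dark. The 12 groups were CJ and NS mice of 30 weeks and of 12 weeks, each sampled at zeitgeber time (ZT, hours after lights on) 2, 10 and 18, with 3 mice in each ZT10 or ZT18 group and 2 mice in each ZT2 group. No group carried a mutation. How ZT in CJ mice relates to their last shift is not stated in the labels. Both ages of CJ mice had begun the shifts at the same age, so in CJ a higher age goes with a longer time on the schedule and the 2 cannot be told apart.

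The genes belong to unlike families. Zfp979 is a zinc finger gene, and zinc finger repressors with a KRAB domain are known for recruiting the corepressor Trim28 to DNA repeats. Irx1 is an Iroquois homeobox transcription factor known from tissue patterning in embryos. Klf16 is a Krüppel-like factor, a family of zinc finger proteins that bind GC-rich DNA. Serpine2 (protease nexin 1) is a secreted inhibitor of thrombin, urokinase and plasmin. Tff3 is a trefoil peptide secreted by mucous epithelia, in the liver known from bile duct cells, and Abhd18 is a protein with an alpha/beta hydrolase domain.

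Levels are log2 of the scanner signal relative to the 75th percentile of the array, so a level of 0 equals that percentile and levels of different genes cannot be set against each other. Between 24183 and 32340 of 55681 probes per array (43.4% to 58.1%) were well above background. The 32 arrays lay on 8 slides, and each slide held 1 mouse of every combination of schedule and age. All 10 hepatocyte markers were well above background on every array, and 2 of them were called lower at 30 weeks in CJ by limma. These were Tat, tyrosine aminotransferase, at −0.38 (limma adjusted p = 0.0223) and Cyp3a11, a cytochrome P450, at −0.34 (limma adjusted p = 0.0398). The median difference over the 10 markers (log2, 30 minus 12 weeks) was −0.15 in CJ and −0.02 in NS, where 0 were called. Median levels of pancreatic acinar and skeletal muscle markers ranged widely between single arrays, with 0 of 7 tested acinar and 0 of 11 tested muscle markers called between the ages in either schedule by limma. Their median differences were −0.91 in CJ and −0.32 in NS for the acinar list, and 0.56 in CJ and 0.36 in NS for the muscle list. In NS 1 of 10 stellate cell markers, Lrat, and 1 of 10 endothelial markers, Clec4g, were called higher at 30 weeks by limma, with 0.39 and 0.28 (adjusted p = 0.0498 and 0.0413). Both lists held differences of either sign, with medians in NS of 0.04 and 0.05. In CJ 0 were called in these lists, with medians of 0.02 and 0.01. The part of these markers in the differences between ages below was not tested. In whole tissue, fewer cells of a type and less RNA per cell cannot be told apart.

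Promoter sequences are shown for Zfp979 and for its relatives on chromosome 4, because Zfp982, Zfp985 and Zfp984 rose with Zfp979 at 30 weeks in both schedules and Zfp933 did not pass the test. A further relative there that rose, Zfp992, had no window in the promoter set used, so its promoter was not searched. The likeness of promoters described here thus does not cover every gene that rose. Irx1, Tff3 and Klf16 had no window either. Each is the 250 bases before the annotated start, 5′ to 3′, from RefSeq on build GRCm38.p6. The capitals mark the longest run of bases that the first 4 share, 16 bases that hold a GC box (GGGCGG).
Zfp979: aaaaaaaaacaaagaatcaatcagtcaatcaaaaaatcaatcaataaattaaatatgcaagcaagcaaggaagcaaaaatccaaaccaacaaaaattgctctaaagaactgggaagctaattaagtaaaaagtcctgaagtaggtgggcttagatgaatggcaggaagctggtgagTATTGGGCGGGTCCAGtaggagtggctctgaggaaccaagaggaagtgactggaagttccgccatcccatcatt
Zfp982: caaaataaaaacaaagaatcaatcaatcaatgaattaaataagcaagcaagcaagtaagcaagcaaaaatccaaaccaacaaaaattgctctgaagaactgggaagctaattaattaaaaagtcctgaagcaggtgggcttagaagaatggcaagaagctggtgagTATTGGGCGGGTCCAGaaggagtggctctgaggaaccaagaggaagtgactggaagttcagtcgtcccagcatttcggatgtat
Zfp985: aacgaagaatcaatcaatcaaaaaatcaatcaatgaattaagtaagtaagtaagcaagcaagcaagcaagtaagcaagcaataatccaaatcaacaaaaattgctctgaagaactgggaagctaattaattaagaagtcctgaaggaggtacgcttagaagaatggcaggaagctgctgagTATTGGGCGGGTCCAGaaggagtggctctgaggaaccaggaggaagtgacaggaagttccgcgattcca
Zfp984: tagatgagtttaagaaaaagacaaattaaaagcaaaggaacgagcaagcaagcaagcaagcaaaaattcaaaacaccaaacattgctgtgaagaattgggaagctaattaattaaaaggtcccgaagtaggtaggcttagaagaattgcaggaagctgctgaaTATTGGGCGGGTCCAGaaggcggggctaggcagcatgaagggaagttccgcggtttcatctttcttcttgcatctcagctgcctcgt
Zfp933: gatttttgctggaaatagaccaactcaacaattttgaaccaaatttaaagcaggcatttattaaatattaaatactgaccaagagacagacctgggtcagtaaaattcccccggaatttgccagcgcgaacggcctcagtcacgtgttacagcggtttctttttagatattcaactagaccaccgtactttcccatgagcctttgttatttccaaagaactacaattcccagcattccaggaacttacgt
The windows are chr4:147642509-147642758 on the minus strand, chr4:147492167-147492416 on the plus strand, chr4:147553027-147553276 on the plus strand, chr4:147809789-147810038 on the minus strand and chr4:147848419-147848668 on the minus strand. Zfp982 has 3 annotated starts, and the one most like Zfp979 is shown, a choice made after seeing the sequences.

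In a global alignment the Zfp979 promoter was identical to that of Zfp982 at 222 of 250 bases (88.8%), to Zfp985 at 216 (86.4%) and to Zfp984 at 188 (75.2%). The Zfp933 promoter matched it at 144 bases (57.6%), against 126 (50.4%) for Serpine2 and 131 (52.4%) for Abhd18, which lie on other chromosomes. G and C made up 78.8% of the Serpine2 and 68% of the Abhd18 window, against 39.6% for Zfp979 and 40.4% for Zfp933. The Serpine2 and Abhd18 windows matched each other at 64%, so they are no matched baseline for Zfp933. On both strands the 16-base run was found in 9 of 32851 promoter windows of this length (0.0274%), and all 9 genes lie on chromosome 4. The GC box alone was in 10756 windows (32.7%). These matches describe the letters in the windows and say nothing of what binds there. Of the 6 genes with the run that were tested, Rex2 did not pass the test between the ages, with a log2 difference (30 minus 12 weeks, ± SE) of 0.02 ± 0.13 in CJ and 0.07 ± 0.13 in NS. Zfp600 had 0.77 ± 0.22 in CJ (limma adjusted p = 0.0426) and 0.56 ± 0.22 in NS (limma adjusted p = 0.354).

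Zfp979 had the largest difference between ages of the 6 genes. In CJ mice its level was lowest −0.15, median 0.62 and highest 0.98 at 30 weeks, against lowest −2.79, median −1.78 and highest −0.91 at 12 weeks. In NS mice it was lowest −0.77, median 0.17 and highest 0.74 at 30 weeks, against lowest −2.98, median −2.17 and highest −1.40 at 12 weeks. All 8 mice of 30 weeks were above all 8 mice of 12 weeks in each schedule, and over both schedules no mouse of one age reached the range of the other. Such a separation within a schedule was found for 0.209% of all genes in CJ and 0.126% in NS. The shares for both schedules together, and for the partial counts given for other genes below, were not determined. The difference was 2.37 ± 0.14 in CJ (5.18-fold) and 2.32 ± 0.14 in NS (5.01-fold), which ranks 4 in CJ and 2 in NS among the rises of all 23109 genes.

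At single times of day the Zfp979 difference in CJ was 2.70 ± 0.30 at ZT2, 2.22 ± 0.25 at ZT10 and 2.20 ± 0.25 at ZT18. In NS it was 2.11 ± 0.30 at ZT2, 2.53 ± 0.25 at ZT10 and 2.33 ± 0.25 at ZT18. Every one of these values lies above 2 on the log2 scale. Of 11 pairs of neighbours in the order of the 12 group means, 9 overlapped in range, and one of the 2 that did not was the step between the lowest group of 30 weeks (NS at ZT2) and the highest group of 12 weeks (CJ at ZT18). The probe used was not well above background on 1 array, a CJ mouse of 12 weeks at ZT2. The second Zfp979 probe was well above background on only 7 arrays, all of 30 weeks, and did not pass the filter. Its median level was −3.57 at 30 weeks against −4.12 at 12 weeks in CJ, and −3.95 against −5.03 in NS. These differences are smaller than with the probe used, and the ages overlapped in both schedules. At ZT2 in CJ its mean was lower at 30 weeks than at 12 weeks (−4.43 against −3.88).

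**Figure D1:**
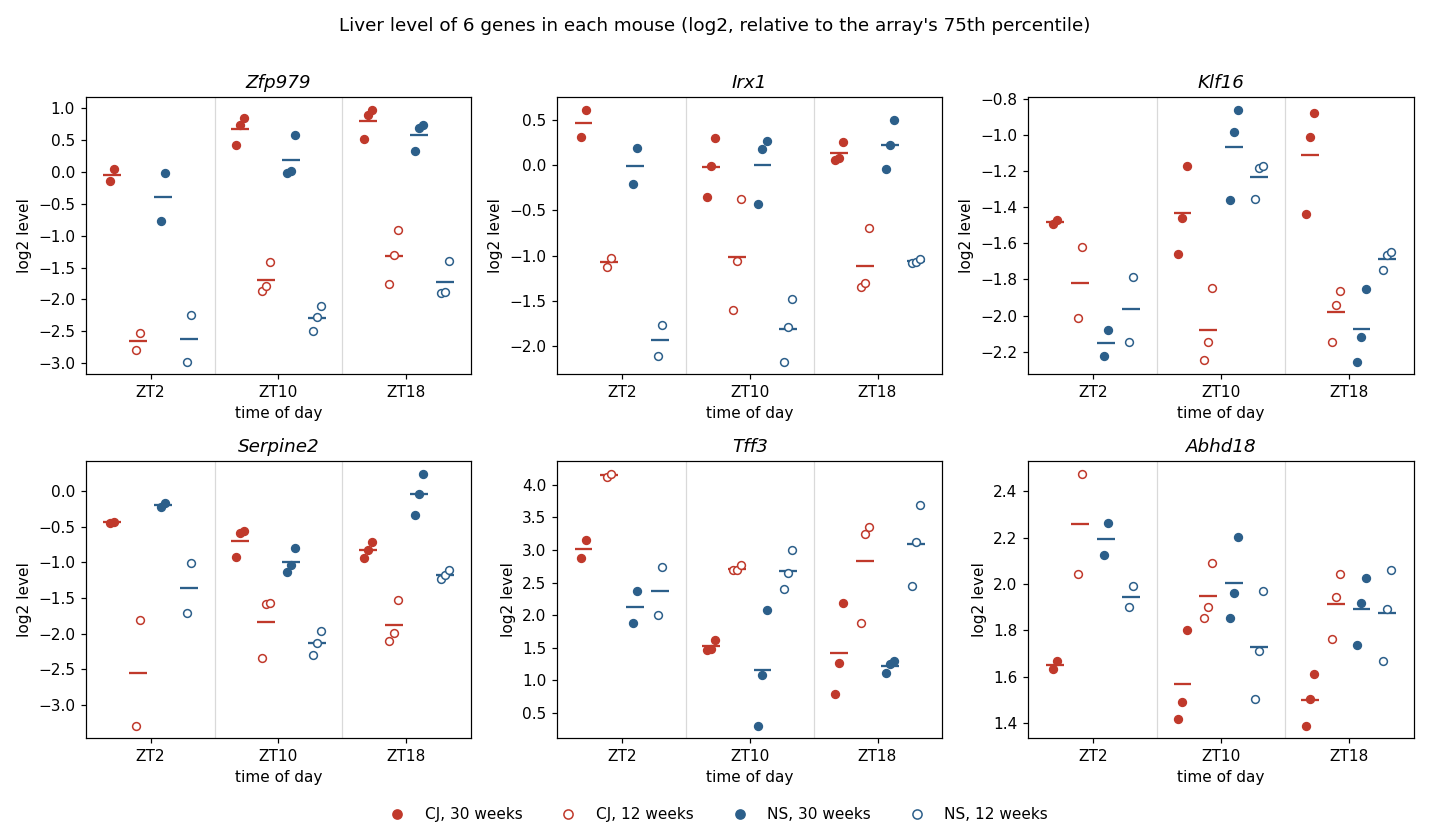
Level of each gene in each of the 32 mice (log2, relative to the array's 75th percentile) at ZT2, ZT10 and ZT18; red is CJ, blue is NS, filled points are 30 weeks, open points are 12 weeks, and bars are group means. Zfp979 and Irx1 separate the ages within each schedule, Tff3 is mostly lower at 30 weeks, and Klf16 and Abhd18 separate them mainly in CJ mice.

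Other Zfp genes rose with Zfp979, mostly those beside it in the genome. In CJ, 4 of 36 tested Zfp genes with a 3-digit number starting with 9 were higher at 30 weeks by limma (adjusted p under 0.05) and 1 was lower, with a median change over the list of 0.02 against −0.04 over all genes; in NS, 5 were higher and 0 lower, with a median of 0.06 against 0.01. Calls over all genes made up 5.31% in CJ (2.09% higher, 3.22% lower) and 0.9% in NS (0.58% higher, 0.32% lower). The split depends on the scaling, with 614 genes higher and 516 lower in CJ after quantile normalisation and 543 and 500 in the authors' table, against 483 and 743 here, and 76 higher and 25 lower in NS in the authors' table, against 134 and 74 here.

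Zfp982 had a level of lowest 0.75, median 1.27 and highest 1.33 in CJ mice of 30 weeks, against lowest 0.02, median 0.21 and highest 0.68 in CJ mice of 12 weeks. In NS it was lowest 0.79, median 1.23 and highest 1.60 at 30 weeks, against lowest −0.17, median 0.10 and highest 0.50 at 12 weeks. The ages did not overlap in either schedule, a separation upward found for 0.209% of genes in CJ and 0.126% in NS. The differences were 0.82 ± 0.09 in CJ and 1.06 ± 0.09 in NS (limma adjusted p = 1.05e-05 and 1.95e-07). Zfp985 rose by 0.70 ± 0.14 in CJ (limma adjusted p = 0.00502) and by 0.74 ± 0.14 in NS (limma adjusted p = 0.00731). Zfp984 rose by 0.53 ± 0.09 in CJ (limma adjusted p = 0.00112) and by 0.60 ± 0.09 in NS (limma adjusted p = 0.000403). Zfp992 rose by 0.57 ± 0.10 in CJ (limma adjusted p = 0.00219) and by 0.46 ± 0.10 in NS (limma adjusted p = 0.0286).

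These 4 genes and Zfp933 are the 5 tested members of the list on chromosome 4. Zfp933 did not pass the test, with 0.04 ± 0.11 in CJ and 0.06 ± 0.11 in NS (limma adjusted p = 0.856 and 0.933). Of the 31 tested members on other chromosomes, Zfp963 was lower at 30 weeks in CJ by limma, with a change of −0.61 ± 0.14, and Zfp947 was the 1 called higher in NS, with 0.30 ± 0.07 (limma adjusted p = 0.0465). The split by chromosome was made after the values were seen and was not tested.

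In RefSeq order on chromosome 4, 13 protein-coding genes run between Zfp992 and Zfp933, both included, with Zfp985 the gene before Zfp979 and Zfp982 the one before that. Apart from Zfp979, 7 of these were tested, and 4 rose in each schedule. Zfp534, the gene after Zfp979, had 0.18 ± 0.08 in CJ and 0.31 ± 0.08 in NS and did not pass (limma adjusted p = 0.214 and 0.0927). Genes so close in sequence can share array signal, and whether a probe of one also catches RNA of another was not tested. KRAB zinc finger proteins act through corepressors, and of 10 tested corepressor genes 0 were called between the ages in CJ or NS by limma.

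**Figure D2:**
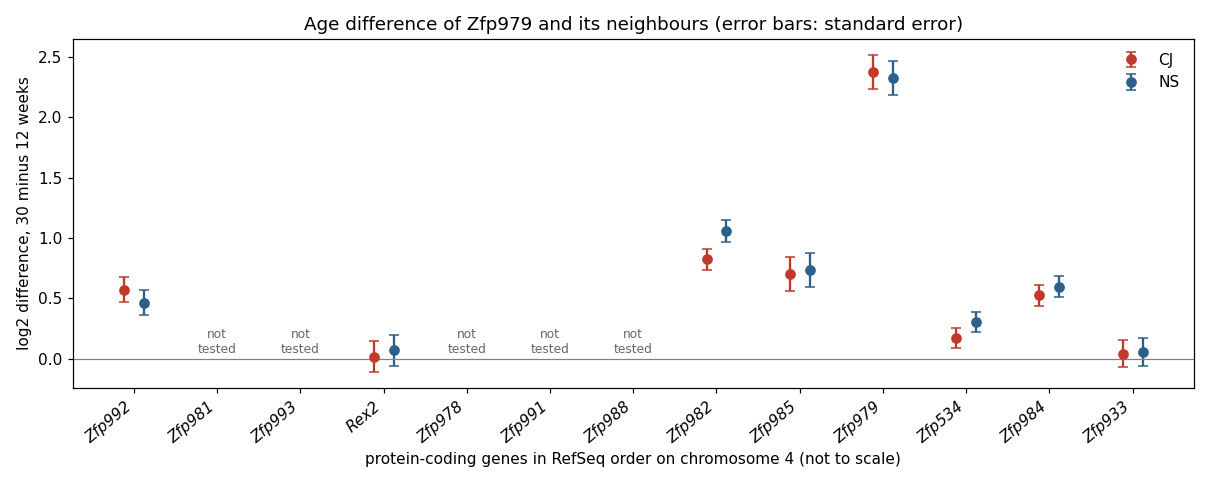
Difference between 30 and 12 weeks (log2, ± SE) in CJ mice (red) and NS mice (blue) for the 13 protein-coding genes from Zfp992 to Zfp933 in their order on chromosome 4; 5 genes were not tested. Zfp979 stands at 2.37 in CJ and 2.32 in NS, 4 neighbours lie between 0.46 and 1.06, and Rex2 and Zfp933 lie within 0.1 of 0.

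Zfp982 and Zfp984 were also the 2 genes whose level followed Zfp979 most closely over the 32 arrays, with Pearson r of 0.94 and 0.90, followed by Pmm1, a phosphomannomutase, at 0.89. Within groups, after the group means were taken off, these r were 0.42, 0.49 and 0.20. The arrays share the ages that set Zfp979 apart, so these values describe likeness only.

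Irx1 was higher at 30 weeks in both schedules. In CJ mice its level was lowest −0.35, median 0.17 and highest 0.62 at 30 weeks, against lowest −1.60, median −1.09 and highest −0.37 at 12 weeks. In NS mice it was lowest −0.43, median 0.19 and highest 0.50 at 30 weeks, against lowest −2.18, median −1.62 and highest −1.04 at 12 weeks. All 8 mice of 30 weeks exceeded all 8 of 12 weeks in each schedule, although in CJ the gap was narrow. Such a separation was found for 0.209% of genes in CJ and 0.126% in NS.

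The Irx1 difference was 1.26 ± 0.15 in CJ (2.40-fold) and 1.67 ± 0.15 in NS (3.17-fold). In CJ it was 1.57 ± 0.32 at ZT2, 0.93 ± 0.27 at ZT10 and 1.29 ± 0.27 at ZT18, and in NS 1.79 ± 0.32 at ZT2, 1.85 ± 0.27 at ZT10 and 1.36 ± 0.27 at ZT18. Among its ordered group means, 9 of 11 neighbouring pairs overlapped in range, and the 6 groups of 30 weeks stood above the 6 groups of 12 weeks. Only 2 other Iroquois genes passed the filter, and 0 of them were called between the ages by limma, with a median change of −0.17 in CJ and 0.09 in NS against −0.04 and 0.01 over all genes. The levels most like Irx1 were those of Dkk3, a secreted Dickkopf-family protein (r = 0.87), Zfp979 (r = 0.86) and Akr1b8, an aldo-keto reductase (r = 0.82). With Zfp979 the r within groups was 0.06, so the likeness of the 2 genes lay in the group means.

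Klf16 differed between the ages in CJ mice and much less in NS mice. In CJ its level was lowest −1.66, median −1.45 and highest −0.88 at 30 weeks, against lowest −2.25, median −1.98 and highest −1.62 at 12 weeks. In NS it was lowest −2.26, median −1.97 and highest −0.86 at 30 weeks, against lowest −2.15, median −1.66 and highest −1.17 at 12 weeks. In CJ 7 of 8 mice of 30 weeks exceeded all 8 of 12 weeks, while in NS the ages overlapped. The difference was 0.62 ± 0.09 in CJ (1.54-fold) and −0.13 ± 0.09 in NS. By time of day it was 0.38 ± 0.18, 0.63 ± 0.15 and 0.86 ± 0.15 in CJ at ZT2, ZT10 and ZT18, and −0.12 ± 0.18, 0.14 ± 0.15 and −0.41 ± 0.15 in NS.

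Among 20 tested Krüppel-like and Sp factors 1 was called higher and 0 lower at 30 weeks in CJ by limma, and 0 either way in NS. The one was Klf13, with lowest 2.02, median 2.38 and highest 2.48 in CJ mice of 30 weeks, against lowest 1.36, median 2.18 and highest 2.38 in CJ mice of 12 weeks, a change of 0.32 ± 0.06 (limma adjusted p = 0.00341). The median over the list was −0.04 in CJ and 0.09 in NS, against −0.04 and 0.01 over all genes. The levels most like Klf16 were those of Mcm10, a DNA replication factor (r = 0.82), Igsf8, an immunoglobulin-domain membrane protein (r = 0.80), and Ilvbl (r = 0.79). Within groups these r were 0.39, 0.44 and 0.51. The 3 genes had differences of 0.40, 0.33 and 0.24 between the ages in CJ and of 0.06, 0.02 and 0.03 in NS. They were picked for likeness to Klf16 over arrays of both ages, so these differences describe likeness only and add no support.

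Serpine2, the secreted protease inhibitor, was higher at 30 weeks. In CJ mice its level was lowest −0.94, median −0.65 and highest −0.43 at 30 weeks, against lowest −3.29, median −1.90 and highest −1.52 at 12 weeks. In NS mice it was lowest −1.13, median −0.29 and highest 0.24 at 30 weeks, against lowest −2.30, median −1.47 and highest −1.02 at 12 weeks. All 8 CJ mice and 6 of 8 NS mice of 30 weeks exceeded every mouse of 12 weeks in their schedule. The full separation seen in CJ was found there for 0.209% of genes. The difference was 1.44 ± 0.15 in CJ (2.71-fold) and 1.13 ± 0.15 in NS (2.19-fold).

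At ZT2 in CJ the Serpine2 difference reached 2.18 ± 0.33, with −0.45 and −0.43 in the 2 mice of 30 weeks, against −1.81 and −3.29 in the 2 mice of 12 weeks. The lowest of these, the CJ mouse at −3.29, was the 1 array on which the probe was not well above background. Without that mouse the CJ difference was 1.19, the low end of the values without 1 mouse each, which reached 1.68. At ZT10 and ZT18 it was 1.02 ± 0.27 and 1.11 ± 0.27 in CJ, and in NS it was 1.07 ± 0.33 at ZT2, 1.26 ± 0.27 at ZT10 and 1.07 ± 0.27 at ZT18.

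Among 23 tested genes of plasminogen and thrombin proteases, their serpins and receptors, 0 were higher and 2 lower at 30 weeks in CJ by limma, and 0 were called in NS. F11, coagulation factor XI, fell by 0.61 ± 0.08 in CJ (limma adjusted p = 0.000143), with lowest 3.43, median 3.94 and highest 4.22 at 30 weeks, against lowest 4.23, median 4.46 and highest 5.03 at 12 weeks. F2r, the thrombin receptor, fell by 0.31 ± 0.09 in CJ (limma adjusted p = 0.0389). The list's median change was −0.07 in CJ and −0.02 in NS, against −0.04 and 0.01 over all genes. Prl2c1, a gene of the prolactin family, had the level most like Serpine2, with r = 0.95 over 32 arrays and 0.67 within groups. It differed between the ages by 1.56 in CJ and 1.24 in NS. Having been picked for likeness over arrays of both ages, its difference adds no support. Zfp979 (r = 0.77) and Irx1 (r = 0.76) came next.

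Tff3, the trefoil peptide, was lower at 30 weeks. In CJ mice its level was lowest 0.80, median 1.55 and highest 3.15 at 30 weeks, against lowest 1.88, median 3.01 and highest 4.17 at 12 weeks. In NS mice it was lowest 0.30, median 1.28 and highest 2.37 at 30 weeks, against lowest 2.00, median 2.69 and highest 3.69 at 12 weeks. The ages overlapped in both schedules, and 5 of 8 CJ mice and 6 of 8 NS mice of 30 weeks were below every mouse of 12 weeks in their schedule. A full separation downward was found for 0.0825% of genes in CJ and 0.026% in NS, and Tff3 is not among them. The difference was −1.21 ± 0.22 in CJ (2.32-fold lower) and −1.24 ± 0.22 in NS (2.36-fold lower).

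By time of day the Tff3 difference was −0.88 ± 0.48, −1.27 ± 0.39 and −1.50 ± 0.39 in CJ at ZT2, ZT10 and ZT18, and −0.50 ± 0.48, −1.52 ± 0.39 and −1.69 ± 0.39 in NS. Its spread between mice of 1 group, an SD of 0.52, was the widest of the 6 genes. Of 10 tested genes of trefoil factors, mucins and mucosal secretion, 0 were called between the ages in CJ or NS by limma, with a median of −0.01 in CJ and 0.04 in NS. Of 9 tested bile duct markers 0 were called either, and their median change was −0.10 in CJ and −0.05 in NS. The goblet cell and gut epithelium list had 0 calls among 3 tested genes, and its part in the Tff3 levels was not tested. The levels most like Tff3 were those of Tmem158 (r = 0.79), Wipi1, an autophagy protein (r = 0.77), and Cobl, an actin nucleator (r = 0.76).

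Abhd18 was lower at 30 weeks in CJ mice and slightly higher in NS mice. In CJ its level was lowest 1.39, median 1.56 and highest 1.80 at 30 weeks, against lowest 1.76, median 1.99 and highest 2.48 at 12 weeks. In NS it was lowest 1.74, median 1.99 and highest 2.26 at 30 weeks, against lowest 1.51, median 1.90 and highest 2.06 at 12 weeks. In CJ 7 of 8 mice of 30 weeks were below every mouse of 12 weeks, while in NS 3 of 8 were above every mouse of 12 weeks. The difference was −0.45 ± 0.07 in CJ (1.36-fold lower) and 0.18 ± 0.07 in NS (1.13-fold higher).

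By time of day the Abhd18 difference was −0.46 ± 0.15, −0.42 ± 0.13 and −0.48 ± 0.13 in CJ at ZT2, ZT10 and ZT18, and 0.20 ± 0.15, 0.24 ± 0.13 and 0.09 ± 0.13 in NS. The second Abhd18 probe, looked at after the data were seen, was dimmer and gave −0.20 in CJ and 0.00 in NS, so the probes disagree in size. Of 18 other tested hydrolase-domain genes 1 was lower and 0 higher at 30 weeks in CJ by limma, namely Abhd5, an activator of triglyceride lipase, with −0.40 ± 0.05 (limma adjusted p = 0.00016), and 0 were called in NS. The levels most like Abhd18 were those of Golga7, a subunit of a palmitoyltransferase (r = 0.82), Top2b, a DNA topoisomerase (r = 0.80), and Tmem175, a lysosomal channel (r = 0.78).

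**Figure D3:**
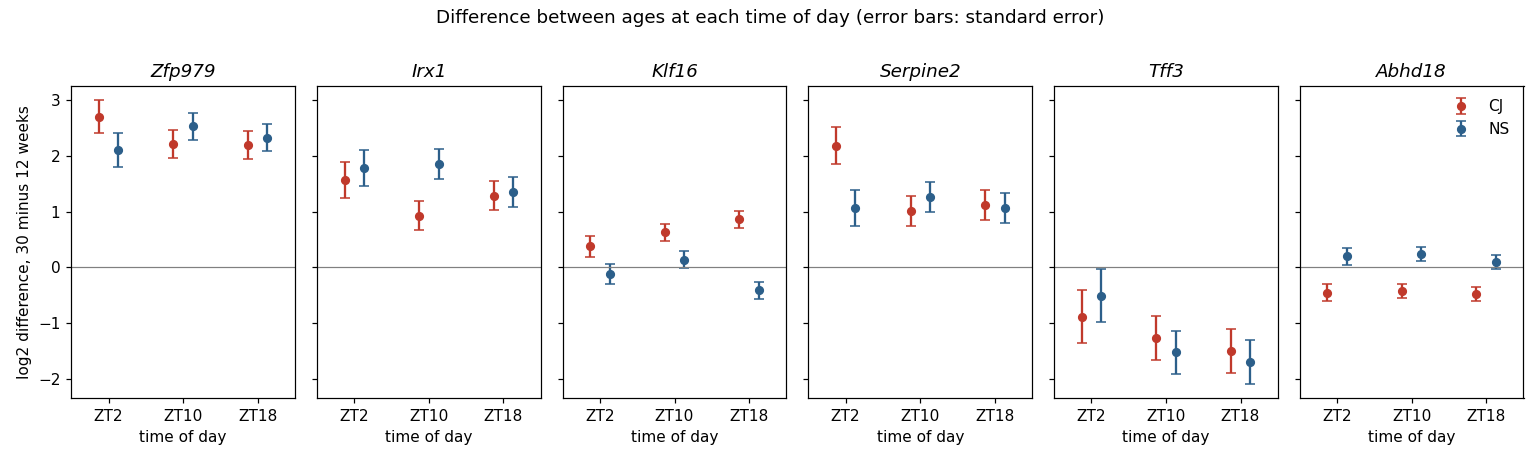
Difference between 30 and 12 weeks (log2, ± SE) at ZT2, ZT10 and ZT18 in CJ mice (red) and NS mice (blue). Zfp979, Irx1 and Serpine2 lie above 0 and Tff3 below 0 at every time in both schedules, whereas Klf16 lies above 0 and Abhd18 below 0 at every time in CJ only.

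Because each slide held 1 mouse of each schedule and age, the ages could also be set against each other within a slide, although the 2 mice of such a pair could differ in time of day. These are the same levels on which the genes were picked, so the counts below describe them and add no support. The share of all genes with such counts was not determined. Zfp979 and Irx1 were higher in the mouse of 30 weeks on 8 of 8 slides in both schedules, and Serpine2 on 8 of 8 in CJ and 7 of 8 in NS. Tff3 was lower in the mouse of 30 weeks on 7 of 8 slides in CJ and on 8 of 8 in NS. Klf16 was higher on 8 of 8 slides in CJ and on 3 of 8 in NS, and Abhd18 was lower on 8 of 8 in CJ and on 1 of 8 in NS. The median difference of Zfp979 over slides was 2.06 in CJ and 2.45 in NS, with a lowest value of 1.64 in CJ and 1.11 in NS.

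**Figure D4:**
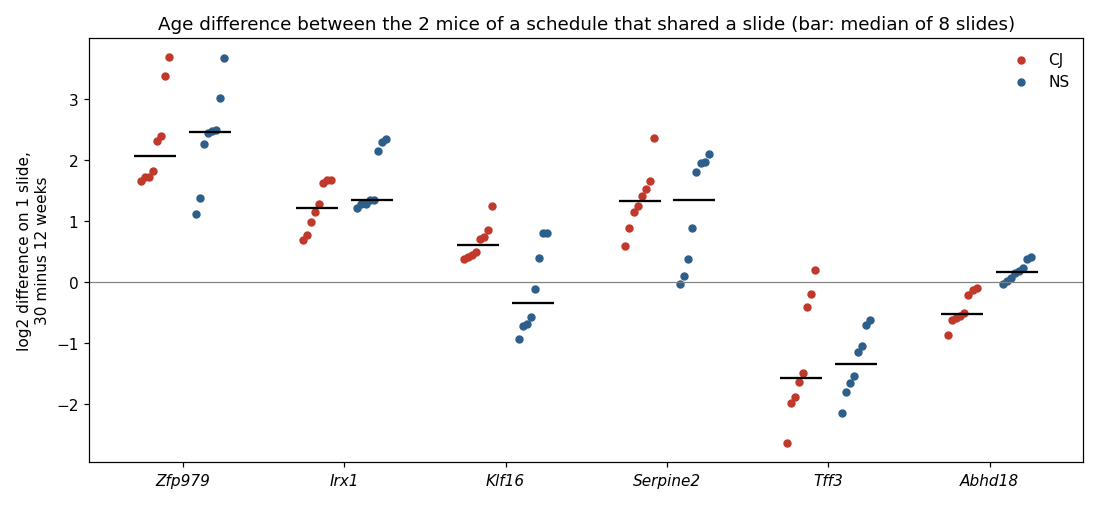
Difference between the mouse of 30 weeks and the mouse of 12 weeks on the same slide (log2), for CJ (red) and NS (blue), with 8 slides per schedule and the median as a bar. All 16 Zfp979 and all 16 Irx1 differences lie above 0, and for Klf16 and Abhd18 all 8 CJ differences lie on one side of 0.

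The remaining comparisons average the 2 ages and were tested with limma over all 23109 genes. They carry none of the difference between ages, but each gene has 1 error estimate for all its comparisons, and genes picked for a clear difference between ages may have an error estimated too low, so these p-values may be too small.

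Between the schedules, 3 of the 6 genes were called, against 10.7% of all genes (4.39% higher and 6.27% lower in CJ). In the authors' table the schedule split was 1649 higher and 1410 lower, against 1015 and 1450 here. Zfp979 was higher in CJ mice by 0.33 ± 0.10 (limma adjusted p = 0.0358), with lowest −2.79, median −0.53 and highest 0.98 in CJ, against lowest −2.98, median −1.08 and highest 0.74 in NS. Tff3 was higher in CJ by 0.50 ± 0.16 (limma adjusted p = 0.0456), and Serpine2 was lower in CJ, with a change of −0.38 ± 0.11 (limma adjusted p = 0.0266). Tff3 was lowest 0.80, median 2.69 and highest 4.17 in CJ, against lowest 0.30, median 2.23 and highest 3.69 in NS. Serpine2 was lowest −3.29, median −1.23 and highest −0.43 in CJ, against lowest −2.30, median −1.08 and highest 0.24 in NS. The ranges of the schedules overlapped for all 3 genes. Irx1 had 0.33 ± 0.11 (limma adjusted p = 0.055), Abhd18 −0.13 ± 0.05 (limma adjusted p = 0.113) and Klf16 0.04 ± 0.06 (limma adjusted p = 0.761). The number of these genes called ranged between 0 and 4 over the alternative settings, and with acinar and muscle markers as covariates none of the 3 passed (limma adjusted p between 0.0558 and 0.117). Without the 8 mice at ZT2 the Tff3 difference was 0.10 (limma adjusted p = 0.811) and that of Serpine2 was −0.23 (limma adjusted p = 0.16), so the Tff3 difference rests on ZT2. Leaving out single mice ended the call of Tff3 in 27 of 32 fits, of Zfp979 in 15 and of Serpine2 in 3, namely without CJ mouse 1 of 30 weeks, CJ mouse 2 of 12 weeks or NS mouse 1 of 12 weeks, all at ZT2.

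Time of day was tested within each schedule. In CJ, 2 of the 6 genes were called, against 10.9% of all genes, and in NS 4 were called, against 30.8%. Zfp979 varied in both schedules and was lowest at ZT2 and highest at ZT18. Its mean level over the 2 ages was −1.36 at ZT2, −0.51 at ZT10 and −0.26 at ZT18 in CJ (limma adjusted p = 0.00122), and −1.50, −1.08 and −0.55 in NS (limma adjusted p = 0.00133). Without the ZT2 mice, which leaves only ZT10 and ZT18 to compare, the CJ difference was 0.25 and not called (limma adjusted p = 0.627). The CJ call thus rests on the contrast with the 4 mice at ZT2. With 1 mouse left out in turn, the CJ range over the means lay between 1.01 and 1.23. The difference between the schedules in the daily profile of Zfp979 was not called (limma adjusted p = 0.615), with CJ minus NS of 0.14 ± 0.21 at ZT2, 0.56 ± 0.16 at ZT10 and 0.29 ± 0.16 at ZT18. Zfp982, its neighbour, was also called over time of day in CJ and in NS and was highest at ZT18 in both (limma adjusted p = 0.0472 in CJ and 0.034 in NS). Zfp984, Zfp985, Zfp992 and Zfp933 were called in neither schedule (limma adjusted p of at least 0.337 in CJ and 0.107 in NS). Of these, Zfp992 was highest at ZT10 in both schedules and Zfp985 in NS.

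Klf16 followed the time of day in NS mice. At ZT10 the NS levels were −0.86, −0.98 and −1.36 at 30 weeks, and −1.35, −1.18 and −1.17 at 12 weeks. At ZT18 they were −1.85, −2.26 and −2.12 at 30 weeks, and −1.75, −1.65 and −1.67 at 12 weeks. Every NS mouse at ZT10 was above every NS mouse at ZT2 and ZT18, and the range over the 3 means was 0.84 (limma adjusted p = 3.77e-06). In CJ mice the ZT10 levels were −1.46, −1.17 and −1.66 at 30 weeks and −1.85, −2.15 and −2.25 at 12 weeks. At ZT18 the CJ levels were −1.44, −0.88 and −1.01 at 30 weeks and −2.14, −1.94 and −1.86 at 12 weeks. There the range over the means was 0.22 and was not called (limma adjusted p = 0.321).

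The daily profile of Klf16 differed between the schedules (limma adjusted p = 0.000271), one of 2 such calls among the 6 genes, against 8.01% of all genes. The CJ minus NS difference of Klf16 was 0.33 ± 0.13 at ZT2, −0.57 ± 0.10 at ZT10 and 0.36 ± 0.10 at ZT18, as means over the 2 ages. At ZT10 all 3 CJ mice of 12 weeks were below all 3 NS mice of 12 weeks, while at 30 weeks the schedules overlapped. At ZT18 the mean joins opposite differences, since the CJ mice of 30 weeks were all above the NS mice of 30 weeks, while the CJ mice of 12 weeks were all below the NS mice of 12 weeks. The call held without any 1 of the 32 mice, with an adjusted p of at most 0.0011.

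Serpine2 was the second gene with a different profile (limma adjusted p = 0.0224). In NS its mean over the 2 ages was −0.80 at ZT2, −1.57 at ZT10 and −0.59 at ZT18, a range of 0.98 (limma adjusted p = 0.000515). At ZT10 the NS mice had −0.80, −1.04 and −1.13 at 30 weeks, and −1.97, −2.14 and −2.30 at 12 weeks, each below all NS mice of the same age at ZT2 and ZT18. In CJ the means were −1.47, −1.30 and −1.33, and the range of 0.18 was not called (limma adjusted p = 0.827). CJ minus NS was −0.67 ± 0.23 at ZT2, 0.27 ± 0.18 at ZT10 and −0.74 ± 0.18 at ZT18. This call was lost without any 1 of 4 single mice at ZT10, namely CJ mouse 1 of 30 weeks, CJ mice 1 and 2 of 12 weeks and NS mouse 2 of 30 weeks, where the limma adjusted p reached 0.0591. It was also lost with the slide as a fixed block (limma adjusted p = 0.0958) and with acinar and muscle markers as covariates (limma adjusted p = 0.135).

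Tff3 varied over the day in CJ (limma adjusted p = 0.00291) and was highest at ZT2. In CJ at ZT2 the levels were 3.15 and 2.88 at 30 weeks, against 4.12 and 4.17 at 12 weeks. Each lay above all CJ mice of the same age at ZT10 and ZT18. The CJ means over the 2 ages were 3.57 at ZT2, 2.15 at ZT10 and 2.10 at ZT18, against 2.26, 1.90 and 2.16 in NS, where no call was made (limma adjusted p = 0.575). Without the ZT2 mice the CJ difference was 0.05 and was not called (limma adjusted p = 0.973), so this call too rests on the contrast with the 4 mice at ZT2. With 1 mouse left out in turn, the CJ range over the means lay between 1.37 and 1.68. The difference between the profiles was not called (limma adjusted p = 0.127), with CJ minus NS of 1.31 ± 0.34 at ZT2, 0.25 ± 0.26 at ZT10 and −0.06 ± 0.26 at ZT18.

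Irx1 was called over time of day in NS with a range of 0.55 and its highest mean at ZT18 (limma adjusted p = 0.0375), a call lost without any 1 of 8 single mice, 5 of them at ZT18, where the limma adjusted p reached 0.119. The call was also lost in the authors' table, with no filter on dim probes, with no slide block, with the slide as a fixed block and with acinar and muscle markers as covariates (limma adjusted p between 0.0577 and 0.12). In NS mice of 12 weeks its levels were −1.77 and −2.11 at ZT2, −1.48, −1.79 and −2.18 at ZT10 and −1.04, −1.08 and −1.07 at ZT18. In CJ the range was 0.19 and was not called (limma adjusted p = 0.784). CJ minus NS was 0.64 ± 0.23 at ZT2, 0.42 ± 0.18 at ZT10 and −0.08 ± 0.18 at ZT18, a difference in profile that was not called (limma adjusted p = 0.236). Abhd18 was not called over time of day in CJ or NS, with ranges of 0.27 and 0.19 (limma adjusted p = 0.146 and 0.261).

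**Figure D5:**
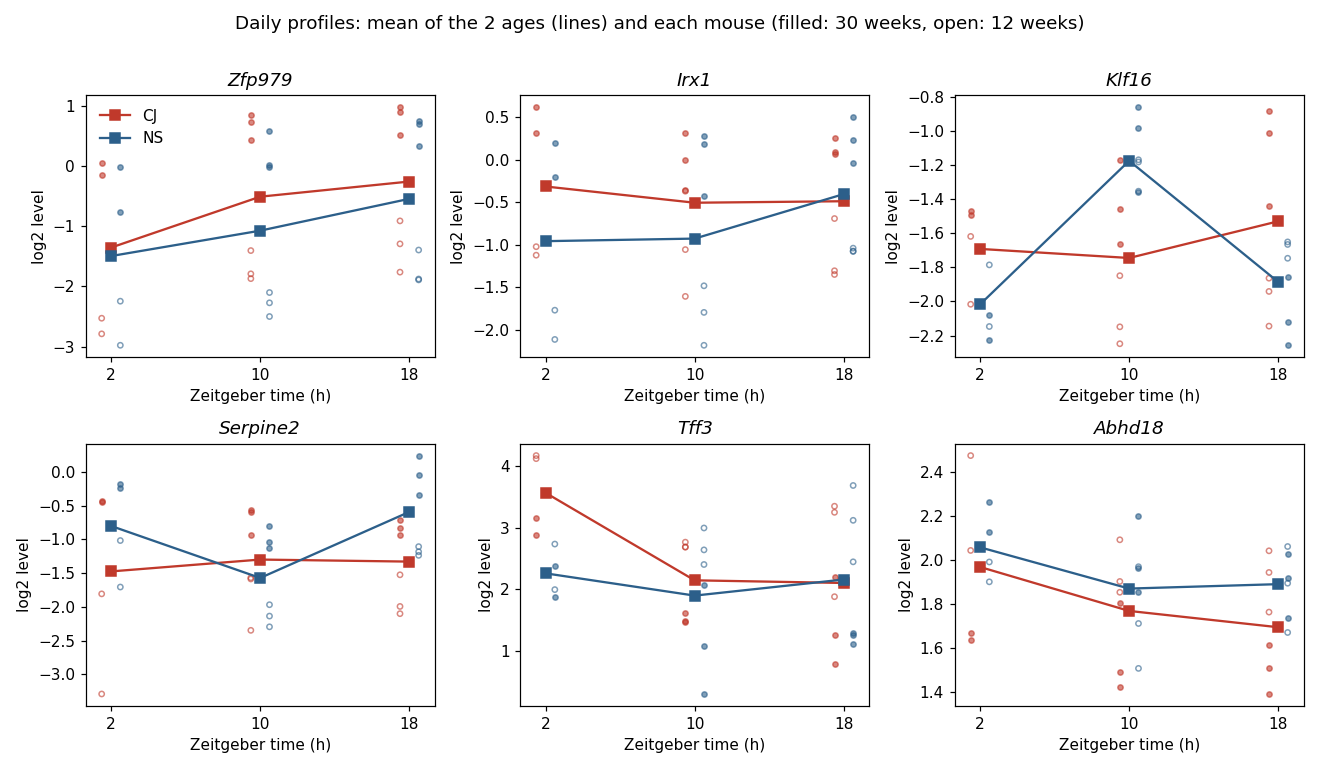
Level of each gene at ZT2, ZT10 and ZT18 (log2) in CJ (red) and NS (blue); lines join the mean of the 2 ages, and points are single mice, filled at 30 weeks and open at 12 weeks. In NS, Klf16 peaks at ZT10 and Serpine2 dips there, with ranges of 0.84 and 0.98, against 0.22 and 0.18 in CJ, and Tff3 reaches 3.57 at ZT2 in CJ.

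Some relatives of the 6 genes were called between the schedules, against 10.7% of all genes (4.39% higher and 6.27% lower in CJ). Of the 20 tested Krüppel-like and Sp factors 3 were higher in CJ and 3 lower, and of the 36 tested Zfp genes 0 were called by limma. Klf13 rose with CJ by 0.27 ± 0.04 and Klf12 fell by 0.33 ± 0.06 on the log2 scale (limma adjusted p = 0.000366 and 0.00157). Of 18 tested hydrolase-domain genes 1 was higher in CJ and 2 were lower. Abhd6, a monoacylglycerol lipase, was higher by 0.30 ± 0.08 (limma adjusted p = 0.0162). Abhd14a and Abhd5 were lower, with −0.20 ± 0.05 and −0.18 ± 0.04 (limma adjusted p = 0.0122 and 0.00459). Spdef, a factor of secretory epithelia, was higher by 0.51 ± 0.14 (limma adjusted p = 0.0175). It was the 1 call among 10 tested trefoil, mucin and mucosal secretory genes. Of 23 tested protease, serpin and receptor genes 3 were higher and 1 lower, and of 10 tested corepressor genes 1 was higher.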

How the data were processed

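Per the file headers, the authors deposited one scanner output per array, whose processed signal is a 1-colour intensity after background subtraction by Agilent Feature Extraction (version 11.0.1.1 in the headers, 9.1 in the submitters' processing notes). A further deposited table holds log2 values, normalised by the authors and, per the labels, with a batch effect removed; the batch is not given in the sources used here. It has 15148 probes and 4 of the 6 genes, and served only as an alternative.

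Control and outlier spots were left out, the spots of a probe were averaged, and each log2 signal was set relative to the 75th percentile of its array. A probe was kept where every array of 1 or more groups had it well above background (30487 probes, 23109 genes by brightest probe, 14082 with a symbol from RefSeq, GRCm38.p6). Genes with a missing value on some array numbered 120, and each was fitted on its remaining arrays. limma 3.58.1 (R 4.3.3, data.table version 1.17.8) fitted 12 group means with the slide as a random block (correlation 0.25). Benjamini-Hochberg adjusted p under 0.05 over all genes counted as a call. The p-values come from this fit, except where an alternative setting or left-out mice are named, which were fitted anew. The slides differ in scan date too, so slide and date cannot be told apart. The fit was tested on simulated data.

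Named genes were the 6 members, the 3 genes most correlated with each, and up to 4 called relatives per list and comparison. Members and lists were chosen with earlier results of these data known. Zfp933, Zfp534, Zfp947, Zfp600 and Rex2 were named after their values were seen. Promoters were aligned with Biopython 1.88. Same-numbered mice did not deviate together (median correlation −0.05, 40 of 160 pairs over 0.1), so numbers were not taken as pairs. Each array is another mouse, and their number limits the precision. Alternatives covered background correction, scaling, filter, slide, probe choice, marker covariates and left-out mice. One called relative is not reported here.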

Additional observations from a re-analysis of the deposited data

Results flagged for a closer look

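The daily profile of Klf16 differed between CJ and NS mice by the interaction test, with a range of 0.93 over ZT2, ZT10 and ZT18 in the CJ minus NS difference (log2; limma adjusted p = 0.000271). The difference changed sign, being below 0 at ZT10 and above 0 at ZT2 and ZT18 as a mean over the 2 ages, although at ZT18 it was above 0 at 30 weeks and below 0 at 12 weeks.

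The daily profile of Serpine2 also differed, with a range of 1.01 in the CJ minus NS difference (log2; limma adjusted p = 0.0224). It was below 0 at ZT2 and ZT18 and above 0 at ZT10. The call was lost with the slide as a fixed block (limma adjusted p = 0.0958) and with acinar and muscle markers as covariates (limma adjusted p = 0.135).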

How the results depend on the processing

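No called difference of the 6 genes changed its sign under the alternatives run. The uncalled schedule difference of Klf16, 0.04, turned to −0.10 without the ZT2 mice (limma adjusted p = 0.429). The split over all genes turned between schedules in the authors' table and between the ages in CJ under 4 settings given below. The differences between ages of Zfp979, Irx1, Serpine2 and Tff3 kept their sign under all settings in which the gene was measured, but normexp, which used the median signal because the files hold no mean signal, shrank them to 1.35 in CJ and 1.38 in NS for Zfp979, 0.83 and 1.12 for Irx1 and 0.71 and 0.73 for Serpine2, and to 0.25 in CJ for Klf16. With normexp 1935 genes were called between the ages in CJ and 128 in NS. In the authors' table, which lacks Serpine2 and Klf16, 101 genes were called between the ages in NS (76 higher, 25 lower), and of the members 1 was called between schedules, 2 over time in NS and 0 in the interaction; the schedule split was 1649 higher and 1410 lower. Between the ages in CJ the split turned to 614 higher and 516 lower with quantile normalisation, to 543 and 500 in the authors' table, and to 351 and 285 without the ZT2 mice, against 483 and 743. More genes were also higher than lower there without mouse 2 of CJ at ZT2, 12 weeks. With only probes well above background on all arrays, which leaves out Zfp979 and Serpine2, the members called were 2 over time in NS, 1 over time in CJ and 1 in the interaction, and 137 genes were called between the ages in NS. With no filter on dim probes, and likewise with no slide block or with slide as a fixed block, 0 members were called between schedules. With no slide block the calls were 1435 genes between schedules, 559 between the ages in CJ and 106 in NS. With slide as a fixed block they were 1174 in the interaction, 1 of them a member, and 119 between the ages in NS. With acinar and muscle markers as covariates they were 4364 over time in NS, 1375 over time in CJ and 518 in the interaction, with 1 member called between schedules and 1 in the interaction. Without the ZT2 mice they were 1601 between schedules, 17 over time in CJ, 636 between the ages in CJ and 93 in NS, with 1 member called between schedules and 0 over time in CJ. The cause of these shifts was not tested.

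With 1 mouse left out in turn, members called between schedules ranged between 0 and 3 and in the interaction between 1 and 2. Genes called over time in CJ ranged between 1431 (without mouse 2 of CJ at ZT2, 30 weeks) and 2652. Those called between the ages ranged in CJ between 576 (without mouse 1 of CJ at ZT2, 30 weeks) and 2165 (without mouse 1 of CJ at ZT2, 12 weeks), and in NS between 130 (without mouse 2 of NS at ZT2, 30 weeks) and 218. With the mouse number as a replicate block, 4 members were called between schedules, Irx1 being added at 0.33 (limma adjusted p = 0.0412), and no other call of a member changed. The dim probes of Zfp979 and Serpine2 limit the precision of their levels at 12 weeks.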
